A study of Mus musculus with 2 samples.

Results

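The genes described here encode proteins of the specific (secondary) granules of neutrophils and proteins first made at the myelocyte stage of neutrophil development. They are Ltf, Ngp, Camp, Lcn2, Fcnb, Itgb2l and Cd177, 7 of the 20284 genes named on the array, read by 8 probes that carry a RefSeq transcript accession of 1 of them. They were chosen with their values on these arrays known, so the differences between the groups are given as a description. Total liver RNA came from male C57BL/6 mice with liver fibrosis that received recombinant TSG-6 protein intravenously, or PBS, the vehicle, and was taken 2 weeks later. TSG-6 is a secreted hyaluronan-binding protein. Each group's RNA was a pool of equal amounts from 3 mice, read on 1 one-colour Agilent array, so the study holds 1 TSG-6 array and 1 PBS array. The animals' age and the means of inducing fibrosis are not given in the sources used here, and no liver without fibrosis was analysed here.

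Neutrophils are made in the bone marrow, where promyelocytes fill the primary granules with myeloperoxidase and serine proteases before myelocytes fill the specific granules with lactoferrin, cathelicidin and lipocalin 2. Transcripts of granule proteins are made in these immature stages and are largely shut off before the mature cell leaves the marrow for blood and tissue. The transcription factors of the C/EBP family, C/EBP epsilon above all, drive the specific granule genes. Lcn2 is also made by hepatocytes during injury and the acute phase response, so in liver it is not a gene of neutrophils alone.

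Ltf, Ngp and Camp, the members with the larger differences among those of bright signal, all lie on chromosome 9. The 250 bases before the annotated start of these 3 genes are shown beside those of Lcn2, the member that differed least. The sequences are those of RefSeq on GRCm38.p6, read 5′ to 3′ on the strand of the gene, and all 7 members had an entry. Capitals mark matches on either strand to TTNNGNAA, a C/EBP motif, or to GAGGAA, a core of PU.1 and related ETS factors; no match of one overlaps a match of the other here.
Ltf (chr9:111019042-111019291, plus strand): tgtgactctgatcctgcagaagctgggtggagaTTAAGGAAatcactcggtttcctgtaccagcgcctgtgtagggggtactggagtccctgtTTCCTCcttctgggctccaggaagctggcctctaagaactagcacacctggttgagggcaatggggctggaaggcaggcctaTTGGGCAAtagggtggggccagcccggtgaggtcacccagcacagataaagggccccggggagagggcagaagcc
Ngp (chr9:110419558-110419807, plus strand): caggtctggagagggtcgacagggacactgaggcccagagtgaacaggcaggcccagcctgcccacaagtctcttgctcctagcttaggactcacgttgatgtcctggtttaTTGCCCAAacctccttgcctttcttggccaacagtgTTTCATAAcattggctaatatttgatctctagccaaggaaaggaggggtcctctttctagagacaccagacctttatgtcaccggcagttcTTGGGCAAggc
Camp (chr9:109849457-109849706, minus strand): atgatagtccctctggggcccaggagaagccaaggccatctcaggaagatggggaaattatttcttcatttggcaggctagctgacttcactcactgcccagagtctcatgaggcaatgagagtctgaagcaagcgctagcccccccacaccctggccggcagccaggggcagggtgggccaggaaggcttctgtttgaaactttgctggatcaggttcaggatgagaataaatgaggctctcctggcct
Lcn2 (chr2:32387740-32387989, minus strand): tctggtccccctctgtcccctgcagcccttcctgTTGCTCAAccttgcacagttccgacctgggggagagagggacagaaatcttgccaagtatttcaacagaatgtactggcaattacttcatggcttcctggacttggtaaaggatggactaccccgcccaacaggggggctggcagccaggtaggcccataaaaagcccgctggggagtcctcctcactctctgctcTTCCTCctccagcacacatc

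Ltf held 2 matches to the C/EBP letters, at 217 to 210 and at 75 to 68 bases before the start, and Ngp held 3, the nearest at 11 to 4 bases. Lcn2 held 1, at 216 to 209 bases, and Camp held none. Of the 7 members' promoters 6 held the C/EBP letters, which 36.8% of 32851 RefSeq promoters of this length hold, and 4 of 7 held GAGGAA, against 23.3% of all. TATAAA was found in 1 member, Cd177, against 12.4% of all, and TGTGGT, a RUNX motif, in 0 of 7 against 14.0%. A match is a run of letters and not a shown binding site.

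All signals below are the processed signals of the scanner software, in arbitrary units, and the error beside each is the software's own estimate for that spot. For bright probes this error was a near-constant share of the signal, as with 1499 of 14989 for Ltf and 7486 of 74856 for Lcn2 in the TSG-6 pool. It is thus not a measured spread between spots or probes. Levels were set on a common scale by dividing each array by its 75th percentile (a signal of 2476 on the TSG-6 array and 3158 on the PBS array). Differences are log2 values, TSG-6 minus PBS. With 1 pool per group there is no replicate, no test was possible and the spread between mice is not measured. No member had an outlier flag on either array, although 6.44% of spots on the TSG-6 array and 3.40% on the PBS array did. Each probe was spotted once, and over 327 probes with replicate spots the log2 difference had a pooled SD of 0.13. No spot was saturated. Albumin (Alb), the defining hepatocyte gene of liver, had a signal of 63130 on the TSG-6 array and 62503 on the PBS array.

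Lactoferrin, the iron-binding protein of specific granules encoded by Ltf, gave a signal of 14989 ± 1499 in the TSG-6 pool, against 1702 ± 170.3 in the PBS pool. Ngp, which encodes neutrophilic granule protein of the cystatin superfamily, had 10861 ± 1086 in the TSG-6 pool and 1091 ± 109 in the PBS pool. Both genes were over the array's 75th percentile in the TSG-6 pool and under it in the PBS pool. On the common scale Ltf was 11.2-fold higher in the TSG-6 pool (log2 difference 3.49 ± 0.20, software error) and Ngp 12.7-fold higher (3.67 ± 0.20). In bulk liver RNA, a change in the number of cells of a type and a change in RNA per cell cannot be told apart.

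Camp encodes the mouse cathelicidin, an antimicrobial peptide precursor stored in specific granules, and it was the only member with 2 probes. The brighter probe gave 14662 ± 1466 in the TSG-6 pool and 2720.4 ± 272 in the PBS pool. The other gave 8519.9 ± 852 in the TSG-6 pool and 1628 ± 163 in the PBS pool. The probes put Camp 6.87-fold and 6.68-fold higher (log2 differences 2.78 and 2.74), so they differed by less than the software error of either.

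Fcnb, Itgb2l and Cd177 were dim in the PBS pool. Fcnb, which encodes ficolin B, a pattern recognition protein of the lectin complement pathway, had a signal of 262 ± 26.5 in the TSG-6 pool and 59.2 ± 8.17 in the PBS pool. Itgb2l encodes pactolus, a relative of the integrin beta 2 chain, and gave 501 ± 50.2 in the TSG-6 pool and 58.5 ± 7.93 in the PBS pool. Cd177, a surface glycoprotein of neutrophils that associates with integrins, had 149.6 ± 15.5 in the TSG-6 pool and 42.4 ± 6.92 in the PBS pool. All 3 were well above background on both arrays, where the dimmest detected probe of a named gene had a signal of 18.6 on the TSG-6 array and 24.1 on the PBS array. Their log2 differences were 2.49 ± 0.25 for Fcnb, 3.45 ± 0.24 for Itgb2l and 2.17 ± 0.28 for Cd177, or 5.63-fold, 10.9-fold and 4.50-fold higher in the TSG-6 pool. With normexp background correction and an offset of 50, which pulls the ratios of dim probes towards 1, they were 1.42, 2.40 and 1.16.

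Lcn2 was the member with the difference nearest to 0. Lipocalin 2, which binds bacterial siderophores, gave a signal of 74856 ± 7486 in the TSG-6 pool and 81633 ± 8163 in the PBS pool, the brightest probe of the 8 on both arrays. Its log2 difference was 0.23 ± 0.20, or 1.17-fold. Its sign turned with the scaling, from -0.20 after quantile normalization, -0.14 after loess and -0.15 after spike-in scaling to 0.52 with the percentile taken over spots without an outlier flag. The 152 genes within 0.5 log2 units of its mean level had a median difference of 0.40 and an SD of 0.17, and 1 of them was at least 2-fold higher.

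**Figure D1:**
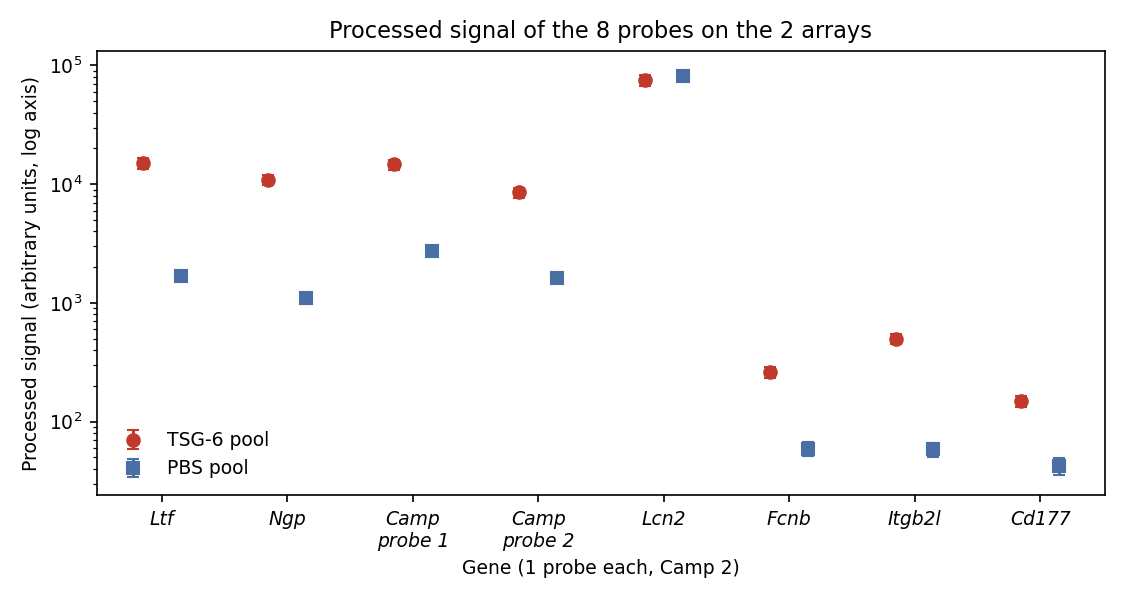
Processed signal (arbitrary units, log axis) of the 8 probes in the TSG-6 pool (circles) and the PBS pool (squares), with the scanner software's error estimate as bars, 1 array per pool. The TSG-6 value is the higher for every probe but that of Lcn2, where 74856 stands against 81633.

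Without scaling between arrays, the signal of the TSG-6 array over that of the PBS array was 8.81 for Ltf, 9.96 for Ngp, 5.39 and 5.23 for the probes of Camp, 8.56 for Itgb2l, 4.42 for Fcnb and 3.53 for Cd177, and 0.917 for Lcn2. The unprocessed spot medians showed the same. Ltf read 13932 over a local background of 31 on the TSG-6 array and 1629 over 28 on the PBS array. Itgb2l read 535.5 over 21 on the TSG-6 array and 84 over 32 on the PBS array, and Cd177 read 173 over 26 on the TSG-6 array and 62 over 24 on the PBS array.

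All 7 members were measured; 6 of them were higher in the TSG-6 pool by 2-fold or more and 0 were lower by that size. Of all 15151 measured genes, 2.94% passed 2-fold on the higher side and 4.29% on the lower side; since the members were chosen with this contrast in view, nothing is read from the count. At 1.5-fold the same 6 members were higher, beside 10.5% of measured genes higher and 10.3% lower. At 4-fold they were also higher, beside 0.409% of measured genes higher and 0.845% lower. The members' median log2 difference was 2.78 and that of all measured genes 0.08. By size of difference among 15151 genes, Ngp ranked 13, Ltf 15, Itgb2l 16, Camp 25, Fcnb 33, Cd177 49 and Lcn2 5271.

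Dim genes scatter more on these arrays, as the genes within 0.5 log2 units of a member's mean level show. Among the 1177 genes like Cd177 the SD of differences was 0.70 and 5.27% were at least 2-fold higher, and among the 1692 like Ngp the SD was 0.53 and 2.42% were.

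**Figure D2:**
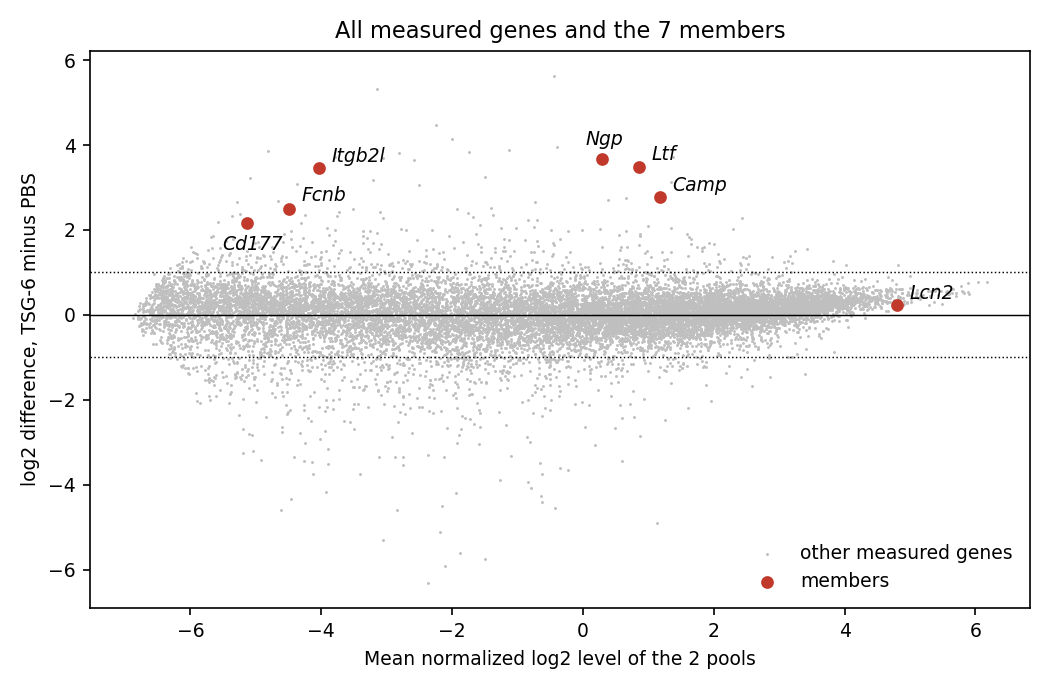
The log2 difference (TSG-6 minus PBS) of 15151 measured genes against their mean normalized log2 level in the 2 pools, with the 7 members in red and dotted lines at 2-fold. Of the members 6 lie from 2.17 to 3.67 at both low and high signal, and Lcn2 lies at 0.23 among the brightest genes.

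Camp, Ngp and Ltf follow each other along chromosome 9 in that order, with other genes between them. RefSeq places 33 other protein-coding and long noncoding genes between Camp and Ltf, of which 25 were measured. Of these, 1 was higher by 2-fold or more and 3 lower by that size in the TSG-6 pool, and their median difference was 0.03. The measured gene next to Ngp on one side, the phosphatase Ptpn23, differed by -0.33 and that on the other, Klhl18, by 0.03. Nme6, a nucleoside diphosphate kinase next to Camp, differed by -0.67, and the chemoattractant receptor-like gene Ccrl2, next to Ltf, by 0.05. The one gene past 2-fold on the higher side, the protease gene Prss50 (1.06), had a signal of 56.0 in the TSG-6 pool and 34.2 in the PBS pool. These neighbours were named by their place and not by their values, Prss50 apart.

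**Figure D3:**
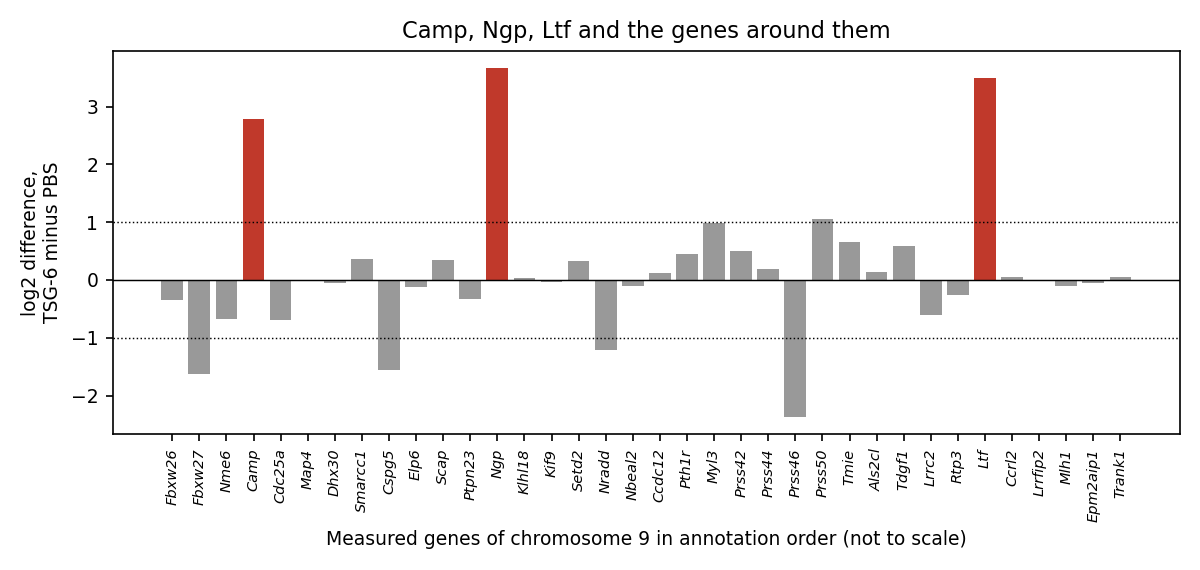
The log2 difference (TSG-6 minus PBS) of measured genes of chromosome 9 in annotation order, from 10 annotated features before Camp to 10 after Ltf, with members in red and dotted lines at 2-fold. Camp at 2.78, Ngp at 3.67 and Ltf at 3.49 stand between neighbours that run from -2.36 to 1.06 within the span.

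Primary granule and promyelocyte genes, the stage before the myelocyte, had 7 of 18 measured genes higher by 2-fold or more and 1 lower by that size, with a median difference of 0.70. Ms4a3, a marker of committed granulocyte and monocyte progenitors, had a signal of 2476 in the TSG-6 pool and 141 in the PBS pool (22.3-fold higher). Cathepsin G (Ctsg) had 7431 in the TSG-6 pool and 608 in the PBS pool (15.6-fold), myeloperoxidase (Mpo) 4344 in the TSG-6 pool and 375 in the PBS pool (14.8-fold), and neutrophil elastase (Elane) 811 in the TSG-6 pool and 114 in the PBS pool (9.10-fold). The list's count of 7 was 5 after spike-in scaling and with the stricter filter on dim probes, and 9 with the percentile of unflagged spots.

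Further specific and gelatinase granule and myelocyte genes were mixed. Of 30 measured, 4 were higher by 2-fold or more and 1 lower by that size, with a median of 0.33. The stefins Stfa1 (2.91) and Stfa3 (2.28), cysteine protease inhibitors of near-identical sequence whose single values are uncertain, and Ceacam10 (2.49) led on the higher side. Stfa1 had 504 in the TSG-6 pool and 85.5 in the PBS pool, and Ceacam10 had 513 in the TSG-6 pool and 116 in the PBS pool. The metalloprotease Adam8 was 5.29-fold lower, with 1851 in the TSG-6 pool and 12483 in the PBS pool; it is also made by macrophages. Of genes named here after their values were seen, the gelatinase Mmp9 differed by 0.22, the chitinase-like Chil3 by -0.73, the peptidoglycan-binding Pglyrp1 by 0.73 and the oxidase subunit Cybb by -0.10. The neutrophil collagenase Mmp8 was read by flagged spots alone, and with them kept its signal was 7638 in the TSG-6 pool and 3145 in the PBS pool (1.63). The count of 4 was 6 with the percentile of unflagged spots, 3 after spike-in scaling and 1 with the stricter filter on dim probes, which left fewer genes.

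Mature neutrophil genes had a median of 0.11 over 29 measured genes, beside 0.08 for all measured genes. Of the 29, 17 were above 0 and 12 below, with 2 higher by 2-fold or more and 3 lower by that size. The list was not limited to genes that neutrophils alone express, so its median is not read as a measure of mature neutrophils. Lower were the platelet-activating factor receptor Ptafr (-1.76), the chemokine Ccl3 (-1.60) and the C-type lectin Clec4d (-1.14, and -0.85 with the percentile of unflagged spots), and the cystatin-like Cstdc4 (1.49) was higher. Named after their values were seen, S100a9 had 28396 in the TSG-6 pool and 32032 in the PBS pool (0.18), S100a8 had 29503 in the TSG-6 pool and 20872 in the PBS pool (0.85), and the chemokine receptor Cxcr2 had 656 in the TSG-6 pool and 955 in the PBS pool (-0.19). Prok2, a chemokine-like peptide, was well above background in the TSG-6 pool alone, at least 7.82-fold higher, where the bright array's level is set against the lowest level of a detected probe on the other. No difference between these lists was tested, since 1 pool per group allows none.

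**Figure D4:**
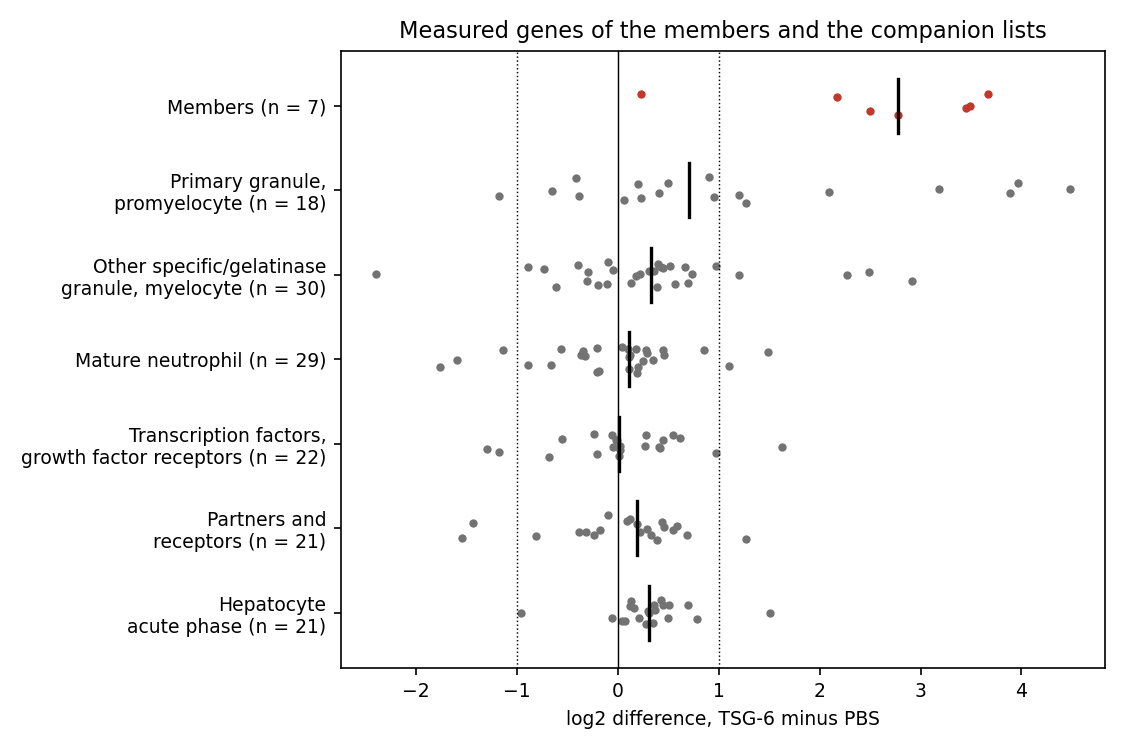
The log2 difference (TSG-6 minus PBS) of each measured gene of the members (red) and of 6 companion lists (grey), with a black bar at each median and dotted lines at 2-fold. The hepatocyte acute phase list also holds cytokine and signalling genes. The median is 2.78 for the members, 0.70 for primary granule genes, 0.33 for other specific granule genes and 0.11 for mature neutrophil genes. Members and lists were chosen with earlier results known, so nothing is read from the order of the medians. Ms4a3 of the primary granule list, at 4.48, lies above every member.

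Of transcription factors and growth factor genes of granulocytes, 1 of 22 measured was higher by 2-fold or more and 2 lower by that size, with a median of 0.02. Cebpe, the factor that drives specific granule genes, had a signal of 9109 in the TSG-6 pool and 5931 in the PBS pool, 1.96-fold (0.97, running from 0.60 after spike-in scaling to 1.26 with the percentile of unflagged spots). Myb, a factor of immature blood cells, had 216 in the TSG-6 pool and 89.2 in the PBS pool (3.09-fold higher). The erythroid and megakaryocyte factor Gfi1b had 50.5 in the TSG-6 pool and 158 in the PBS pool (-1.30), and Runx1 had 247 in the TSG-6 pool and 715 in the PBS pool (-1.18). Neither kept 2-fold throughout: Gfi1b differed by -0.41 under normexp, and Runx1 by -0.89 with the percentile of unflagged spots. The count of 2 lower was 0 under normexp and with the stricter filter, 1 with the percentile of unflagged spots and 3 after spike-in scaling. Gfi1, a repressor needed for granulocyte maturation, differed by 0.41, Cebpd by 0.55, Cebpa by -0.06, Cebpb by 0.01 and Spi1, which encodes PU.1, by -0.55. The G-CSF receptor Csf3r differed by 0.44, its ligand Csf3 by -0.05, the GM-CSF gene Csf2 by 0.61, and the marrow retention pair Cxcl12 and Cxcr4 by 0.27 and 0.42. Csf2 was dim, with 47.9 in the TSG-6 pool and 40.6 in the PBS pool and a software error of 0.31 on its difference. Of the rest, Myc differed by -0.68, the GM-CSF receptor chains Csf2ra and Csf2rb by -0.01 and 0.27, Irf8 by -0.21, Kit by -0.24, Flt3 by -0.02, Gata2 by 0.02 and Meis1 by 0.02. Klf5 had flagged spots alone, and Hoxa9 was not well above background on either array.

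Partners and receptors of the member proteins had a median difference of 0.19. Of 21 measured, 1 was higher by 2-fold or more and 2 lower by that size. Integrin beta 2 (Itgb2), the relative of Itgb2l, had 10844 in the TSG-6 pool and 17239 in the PBS pool (-0.32). Its alpha partners were Itgam at 0.33 by its brightest of 3 probes, which ran from -1.12 to 0.33, Itgal at 0.09, Itgax at -1.43 and Itgad at -1.54. Prtn3, proteinase 3, which CD177 presents on human neutrophils, was 2.42-fold higher, with 16272 in the TSG-6 pool and 8590.3 in the PBS pool (log2 difference 1.27, and 0.90 after spike-in scaling), and Pecam1, a ligand of human CD177, differed by 0.19. Of the lectin pathway, in which ficolins act, the proteases Masp1 and Masp2 differed by 0.29 and 0.59 and the lectin Mbl2 by 0.12. The lipocalin 2 receptors Slc22a17 and Lrp2 differed by -0.10 and -0.81, and Lrp1 and transferrin (Trf), the serum relative of lactoferrin, by 0.46 and 0.44. Intelectin 1 (Itln1), which binds lactoferrin in human, differed by 0.68, Mmp9, which forms a complex with lipocalin 2, by 0.22, the Toll-like receptors Tlr4 and Tlr9 by -0.38 and 0.55, Egfr by 0.39, P2rx7 by -0.24 and Icam1 by -0.18. Itln1 was dim, with 54.6 in the TSG-6 pool and 43.5 in the PBS pool and a software error of 0.29 on its difference. Fpr2, Fcna and Mbl1 had flagged spots alone, with differences of 0.17, 0.43 and 0.43 when these were kept. Jup was well above background in the TSG-6 pool alone, and F2rl1 on neither array.

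Because Lcn2 is also an acute phase gene of hepatocytes, acute phase genes were read beside it. The list also holds cytokine and signalling genes, of which Il6, Il1b, Tnf, Il22, Socs3 and Stat3 were measured. Of 21 measured, 1 was higher by 2-fold or more and 0 lower by that size, with a median of 0.30 beside 0.23 for Lcn2. The 152 genes of a level like that of Lcn2 had a median of 0.40, and hepatocyte markers 0.37. A value of this size is thus not particular to the acute phase list. A further 9 listed genes had flagged spots alone, with differences from -0.42 (Serpina3n) to 0.98 (Orm2) when these were kept. Hamp2, a hepcidin gene, was 2.85-fold higher, with 39400.1 in the TSG-6 pool and 17632 in the PBS pool. Saa4 differed by 0.79, the lipopolysaccharide-binding protein Lbp by 0.69 and the cytokine gene Tnf by -0.96. Serum amyloid Saa1, named after its value was seen, had 39937 in the TSG-6 pool and 48562 in the PBS pool (0.07).

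Markers of other cells in liver and blood were read in the same way, with list sums of signal relative to the 75th percentile. Basophil, mast cell and eosinophil markers had 7 of 16 measured genes higher by 2-fold or more and 2 lower, and their sum was 9.31 in the TSG-6 pool and 11.7 in the PBS pool. Most of that sum was the eosinophil ribonuclease gene Ear2, with a signal of 15171 in the TSG-6 pool and 28026 in the PBS pool. Without Ear2 the sum was 3.19 in the TSG-6 pool and 2.81 in the PBS pool, so its direction turned; leaving out the brightest gene of a list was chosen after seeing the data. The count of 7 was 3 under normexp and after spike-in scaling, and 1 with the stricter filter. The basophil protease Prss34 had 651 in the TSG-6 pool and 63.1 in the PBS pool, and Mcpt8 had 349 in the TSG-6 pool and 52.7 in the PBS pool, while the eosinophil gene Prg2 differed by 1.47 and Siglecf by -1.61. The differences of the dim probes of Prss34 and Mcpt8 were 3.72 and 3.08, and under normexp 2.57 and 1.74. Erythroid markers had 3 of 10 measured at least 2-fold higher, Car1 (2.36), Klf1 (2.01) and Ermap (1.19), with a sum of 22.4 in the TSG-6 pool and 20.9 in the PBS pool. Without Hba-a1, an alpha globin gene and the brightest of them, the sum was 6.83 in the TSG-6 pool and 3.95 in the PBS pool. Ermap fell short of 2-fold in 4 of 12 alternatives, lowest at 0.47 with flagged spots kept. Epb42, Rhag and Trim10 were not well above background on either array. Stem and progenitor cell markers had Myb at least 2-fold higher of 13 measured, with a sum of 15.9 in the TSG-6 pool and 18.7 in the PBS pool, and Hoxa9 was not well above background on either. The part of these cells in the members' differences was not tested.

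Monocyte markers had a median of -0.39 over 9 genes with 0 past 2-fold, and Kupffer cell and macrophage markers 0.17 over 12 with 1 at least 2-fold higher. Hepatocyte markers had 2 of 11 at least 2-fold higher (median 0.37), platelet markers 1 of 13 (0.32), B and plasma cell markers 1 of 13 (0.14), T and NK cell markers 0 of 17 (-0.10) and endothelial markers 0 of 11 (0.19), with 0 lower in each of these lists. Stellate cell and fibroblast markers had 4 of 13 at least 2-fold lower (median -0.57) and bile duct markers 0 of 7 past 2-fold (-0.34).

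The 5 genes most like the members were found by the distance between their pair of log2 levels, in the 2 pools, and the members' median pair, which was 2.13 in the TSG-6 pool and -1.53 in the PBS pool. They were the long noncoding RNA Meg3 (distance 0.69), the centromere protein gene Cenpm (0.82), Ctsg (1.01), the antisense transcript Hnf4aos (1.16) and the erythroid factor Klf1 (1.25). With 2 arrays this likeness rests on 2 values per gene and depends on the brightness of each probe.

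**Figure D5:**
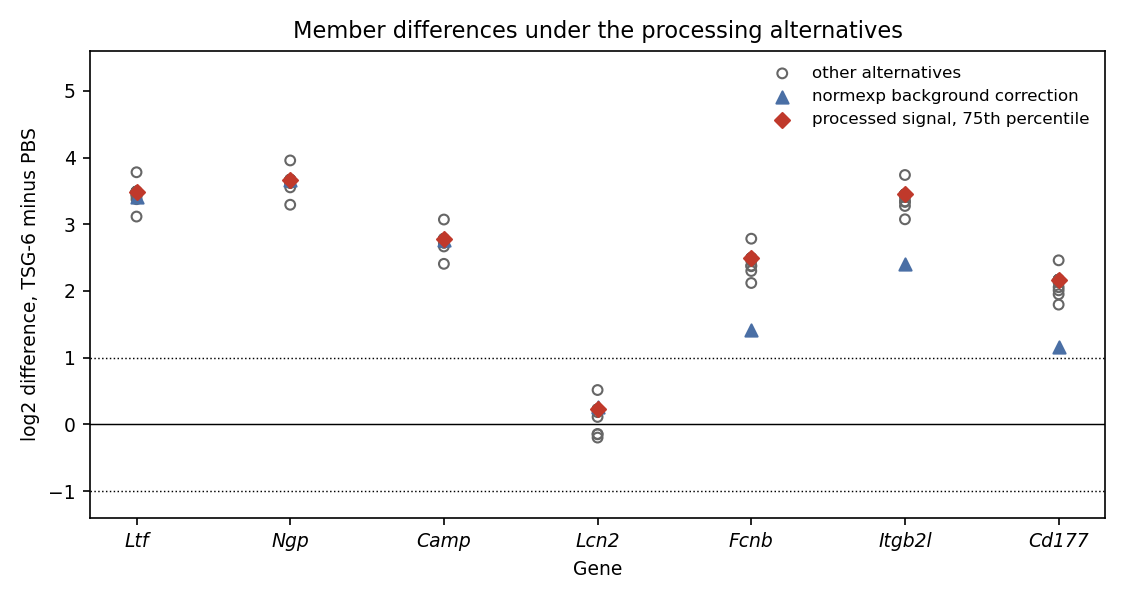
The log2 difference (TSG-6 minus PBS) of each member under the reported processing (diamonds), under normexp background correction (triangles) and under the other alternatives (open circles), with dotted lines at 2-fold. The 6 higher members stay above 2-fold throughout, lowest for Cd177 at 1.16, and Lcn2 runs from -0.20 to 0.52.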

How the data were processed

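Intensities are the processed signals of the authors' deposited scanner files. Per the file headers, these came from Agilent Feature Extraction 11.5.1.1 (the submitters' processing notes name 10.7), with statistics listed for background subtraction and for spatial and multiplicative detrending, and the array was designed on mm9. The authors' deposited value table holds log2 values. Both of its columns matched log2 processed signal less a constant, to 0.001, for 100% of 55249 singly spotted probes; their medians were -3.77 (TSG-6) and -3.90 (PBS). Each column had its own constant, 11.08 (TSG-6) and 11.42 (PBS), and the 75th percentile of both columns was -0.0001. The deposited columns are thus aligned between arrays at that percentile. Scale and direction are settled, and probes were not centred one by one.

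From log2 processed signal, the 75th percentile of each array's 59305 non-control spots was subtracted. Spots with an outlier flag were left out. A probe was taken as detected on an array if 50% or more of its spots there were called well above background. It was taken as measured if it was detected on both arrays. The 664 named genes above background on 1 array alone are therefore not among the 15151 measured genes. Where a gene had several probes, the one detected on more arrays, then the brighter, stood for it. Accessions were named through RefSeq (GRCm38.p6), which matched 26762 of 55681 probes. The software's spot errors were propagated to the log2 difference. The members, the 20 companion lists and the 2-fold size rule were chosen with earlier results of these data known. Named genes were all members, all partner and transcription factor genes, up to 4 genes of largest absolute difference in each other list, and the 5 genes most like the members; exceptions are said to be named after their values were seen or are given for their detection. The steps were tested on simulated data. R 4.3.3 with limma 3.58.1 gave the normexp, quantile and loess alternatives, and Python 3.11.15 the rest. The other alternatives changed the percentile, scaling, flag and dim-probe filters and the choice of probe.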

Additional observations from a re-analysis of the deposited data

How the results depend on the processing

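The 6 higher members were at least 2-fold higher in each of the 13 alternatives that measured them, and at thresholds of 1.5-fold and 4-fold. The stricter filter on dim probes left 4 members, of which 3 were at least 2-fold higher, with a median of 3.14. With normexp and a 4-fold threshold together, chosen after seeing the data, 4 members were past the threshold. The members' median difference was 3.07 with the percentile of unflagged spots, 2.41 after spike-in scaling and 2.40 under normexp. Over all genes, those at least 2-fold higher numbered 1018 with the percentile of unflagged spots, 188 after spike-in scaling, 289 under normexp, 907 without any filter on dim probes and 223 with the stricter filter. Those at least 2-fold lower numbered 376, 1416, 400, 957 and 322 under the same settings. The cause of these shifts was not tested, apart from the filters, which change the number of genes to 19031 and 10199. Scaling moved the median of all genes by 0.29 (percentile of unflagged spots), -0.37 (spike-in), -0.11 (median), -0.10 (quantile) and -0.13 (loess). Relative to that median, Ltf ran from 3.31 to 3.50, Ngp from 3.57 to 3.68, Camp from 2.66 to 2.78, Lcn2 from -0.17 to 0.17, Fcnb from 1.31 to 2.44, Itgb2l from 2.30 to 3.40 and Cd177 from 1.06 to 2.12, with the low ends of the last 3 under normexp. Of genes past 2-fold, 446 were higher and 650 lower in the reported processing. Higher genes made up 73.0% of those past 2-fold with the percentile of unflagged spots, 29.5% after median scaling, 28.7% after loess and 11.7% after spike-in scaling. Of 1525 values of 120 named genes under alternatives, 1211 lay within the software error of the reported value, 314 moved further and 0 of those past 2-fold changed sign. No paired analysis was possible because each group holds 1 array. No sample could be left out for the same reason. The number of arrays limits the precision.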

Other observations

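Chemokines that attract neutrophils and cell division genes were also read in both pools. Of 7 measured chemokines 1 was higher by 2-fold or more and 3 lower by that size in the TSG-6 pool. Cxcl5, a ligand of the neutrophil receptor Cxcr2, had a signal of 2462 in the TSG-6 pool and 1119 in the PBS pool (log2 difference 1.49), and Cxcl2, another such ligand, had 48.4 in the TSG-6 pool and 238 in the PBS pool (-1.94, and -1.08 under normexp). Ccl4 (-1.82) and Ccl3 (-1.60) were lower. In the TSG-6 pool Cxcl3, which passed background on the PBS array alone, was at least 2.42-fold lower.

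Cell division genes, which dividing myelocytes and promyelocytes express along with any other dividing cell, had 0 of 35 measured genes higher by 2-fold or more and 7 lower by that size, with a median of -0.48. The count of 7 lower was 15 after spike-in scaling and 4 with the percentile of unflagged spots. Cyclin E1 (Ccne1) had 446 in the TSG-6 pool and 3432 in the PBS pool, Cdc6 206 in the TSG-6 pool and 1178 in the PBS pool, and the helicase subunits Mcm2 and Mcm5 differed by -1.74 and -1.63.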
